A study of Mus musculus with 4 samples.

Results

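Btg1, Btg2, Btg3, Tob1 and Tob2 of the BTG/TOB family and Gadd45a, Gadd45b and Gadd45g of the GADD45 family were measured by RNA-seq in muscle stem cells (MuSCs) of mouse plantaris muscle. The genes were matched by symbol, from families chosen with earlier results of these data known. Each symbol matched 1 row of the deposited count table, so that they were 8 of its 19353 genes. The mice of both groups carried the genotype Pax7-CreERT2:Rosa-YFP and had received tamoxifen, which lets a Cre recombinase expressed from the Pax7 gene switch on yellow fluorescent protein (YFP). Tenotomy released the gastrocnemius and soleus at their distal ends, so that the plantaris, their synergist, was overloaded, and sham surgery opened the skin only. At 4 days after surgery, YFP-positive cells were collected by sorting, 100 to a tube, and 2 libraries per group were made by CEL-Seq2, so that any cell in which the recombination had occurred could enter a tube. The age of the mice is not given in the sources used here. Nor do they state if each library came from its own mouse, or if the sham muscle of these libraries was the opposite leg of an operated mouse, as in other experiments of the study, so that the p-values measure only the spread between these libraries, which may be technical.

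CEL-Seq2 captures each transcript once at its poly(A) end and tags it with a unique molecular identifier (UMI) before amplification. A count is therefore a number of captured molecules, and levels of different genes were compared without division by transcript length. There were 269683 and 260488 UMIs in the sham libraries against 387955 and 483528 in the tenotomy libraries, which is 2697 and 2605 UMIs per sorted cell against 3880 and 4835. Levels are given as counts scaled to a common total of the UMIs of all tested genes (CPM) after edgeR's TMM scaling, with factors of 0.909 and 0.908 for sham and 1.08 and 1.12 for tenotomy. On this scale, 3 counts correspond to 13.1 and 13.6 CPM in the sham libraries and to 7.80 and 6.08 CPM in the tenotomy libraries. In such bulk samples, fewer cells that express a gene and less RNA of that gene per cell cannot be told apart.

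The label of muscle stem cells was checked against marker genes. All 10 myogenic markers were detected well enough to be tested, among them Pax7, the transcription factor that defines MuSCs, with 118 and 107 UMIs in sham against 108 and 137 after tenotomy, and their most abundant gene was Myf5, a myogenic regulatory factor, with 244 and 168 UMIs against 388 and 467. Relative to the rest of the library, 4 of the 10 were lower after tenotomy and 3 were higher by edgeR's quasi-likelihood test at an adjusted p below 0.1, with a median log2 fold change of -0.09, beside 26.3% lower and 25.8% higher among all tested genes. Pax7 (log2 fold change -0.84, edgeR adjusted p = 6.4e-04), Vcam1 (-0.90), Chodl (-1.76) and Calcr (-2.60) were lower, and Cdh15 (0.47), Itga7 (0.67) and Myog (1.43), a factor of differentiation, were higher. When UMIs were compared per tube of 100 cells, 6 were higher and 2 lower, beside 62% higher and 4.58% lower among all tested genes. With offsets that remove the trend of fold change with abundance, 6 were higher and 2 lower, beside 21.3% and 21.8%. Pax7 and Vcam1 lost their lower calls under both, and the call of Cdh15 was lost with DESeq2 and when either sham library or tenotomy replicate 1 was left out, and that of Itga7 without sham replicate 2. Markers of other cells were also present. The 10 leukocyte markers together had 3 and 5 UMIs in the sham libraries and 66 and 148 in the tenotomy libraries. Lyz2, the most abundant of them, had 0 and 0 UMIs against 17 and 38, and Ptprc, which encodes the pan-leukocyte antigen CD45, had 0 and 1 against 1 and 4. The 7 endothelial markers had 9 and 4 UMIs against 40 and 36, with Cdh5 at 3 and 1 against 14 and 11. The mural and glial markers had 22 and 10 UMIs against 60 and 135, of which Rgs5, the most abundant, had 13 and 4 against 38 and 86. The myofibre markers, led by Acta1, had 199 and 113 UMIs against 615 and 629. Fibroblast markers were high in both groups, with 1112 and 1010 UMIs against 1353 and 1567, led by Col3a1, whereas Pdgfra, which defines that lineage, had 0 and 0 against 2 and 0. Of the 5 tested fibroblast markers, Col3a1, Dcn and Gsn were lower and Ly6a, which encodes the surface antigen Sca-1, was higher. Per tube 4 of the 5 were higher, and with the offsets 3 were, and both settings lost the 3 lower calls, of which that of Dcn was lost in 8 of 11 alternatives and that of Col3a1 also without sham replicate 1. Ly6a had 1 and 0 UMIs in sham against 22 and 41, a ratio of 32.3 with an exact counting interval of 5.59 to 1296. The part of these other transcripts in the levels given here was not tested.

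BTG and TOB proteins share a conserved domain by which they bind the CAF1 subunits of the CCR4-NOT complex, the main deadenylase of the cell, and thereby promote shortening of poly(A) tails and decay of mRNA. They are known for restraining entry into the cell cycle, and Btg2 is a classical target of p53 and of growth factor signalling. GADD45 proteins are small acidic proteins induced by stress and DNA damage, which bind the kinase MTK1 (encoded by Map3k4) upstream of p38 and JNK, the replication clamp PCNA and the cyclin-dependent kinase inhibitor p21 (encoded by Cdkn1a). Resting MuSCs stay out of the cell cycle until they are activated.

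The promoters of Btg1, Btg2, Gadd45b and Gadd45g are shown because these genes include the pairs within which transcripts moved alike (Btg1 and Btg2) or unlike (Gadd45b and Gadd45g). Each is the 250 bases before the RefSeq start site on the gene's own strand, from the RefSeq promoter table for GRCm38.p6, in which all 8 genes were matched. Btg1 is at chr10:96616751-96617000 on the plus strand, Btg2 at chr1:134079156-134079405 on the minus strand, Gadd45b at chr10:80929841-80930090 on the plus strand and Gadd45g at chr13:51846425-51846674 on the plus strand. Capitals mark matches, on either strand, to any of 5 motifs, which did not overlap each other. The cAMP response element (CRE) was searched as TGACGTCA. For the TATA box the letters were TATAAA. The CCAAT box was searched under its own letters, which read ATTGG on the other strand. The AP-1 element was written as TGANTCA. For forkhead factors the letters were GTAAACA, and their other strand reads TGTTTAC.
Btg1: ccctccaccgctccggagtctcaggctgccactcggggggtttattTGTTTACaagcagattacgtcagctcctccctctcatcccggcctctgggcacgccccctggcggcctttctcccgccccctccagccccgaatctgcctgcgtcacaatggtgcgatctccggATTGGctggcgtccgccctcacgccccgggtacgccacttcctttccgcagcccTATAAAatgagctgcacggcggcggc
Btg2: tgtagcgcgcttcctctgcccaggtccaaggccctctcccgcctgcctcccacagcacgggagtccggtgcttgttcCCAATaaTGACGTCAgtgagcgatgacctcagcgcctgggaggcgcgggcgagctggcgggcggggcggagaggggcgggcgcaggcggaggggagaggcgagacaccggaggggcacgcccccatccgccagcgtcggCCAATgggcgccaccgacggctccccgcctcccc
Gadd45b: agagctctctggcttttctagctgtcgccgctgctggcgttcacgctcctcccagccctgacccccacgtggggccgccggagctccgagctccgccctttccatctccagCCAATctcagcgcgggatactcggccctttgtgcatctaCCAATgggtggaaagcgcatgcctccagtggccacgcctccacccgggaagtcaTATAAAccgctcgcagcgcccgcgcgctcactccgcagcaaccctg
Gadd45g: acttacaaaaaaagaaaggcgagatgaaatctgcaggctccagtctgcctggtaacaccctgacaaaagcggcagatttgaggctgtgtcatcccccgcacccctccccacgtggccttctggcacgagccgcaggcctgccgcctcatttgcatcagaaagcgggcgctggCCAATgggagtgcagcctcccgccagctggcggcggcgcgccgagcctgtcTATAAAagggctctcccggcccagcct

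In the 300-base windows of that table, which run 50 bases past the start, a TATA box was found for 4 of the 8 genes (Btg1, Tob1, Gadd45b and Gadd45g), against 13.6% of all 32851 windows. The matches began 26, 47, 46 and 27 bases before the start, respectively. A CCAAT box was found for 7 of the 8 genes, against 37.4% of windows, and Tob2 was the gene without one. The CRE was found only in the Btg2 window among the 8 genes, 166 bases before the start, and in 1.79% of all windows. The forkhead element was found only in Btg1 among them, 204 bases before the start, and in 3.65% of all windows. The AP-1 element, present in 7.81% of windows, was found for 0 of the 8 genes. Gadd45b and Gadd45g shared the TATA and CCAAT letters, and any relation of the letters to the fold changes was not tested. A match describes the letters and shows neither a bound site nor a cause.

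At 4 days after tenotomy, transcripts of Btg1, Btg2, Tob2, Gadd45a and Gadd45b were lower relative to the rest of the library than in sham MuSCs, by 1.96-fold to 3.60-fold. Gadd45g was 1.37-fold higher by the same test, a call that several alternatives did not keep. Tob1 did not pass the test, and Btg3 was too rare to be tested. Of the 8 genes, 7 passed the filter on low counts, 5 were lower and 1 was higher, and 6 of the 7 had levels that did not overlap between the groups. Among all 7228 tested genes, 26.3% were lower and 25.8% were higher at an adjusted p below 0.1, the threshold of the study (quasi-likelihood test of edgeR, adjusted by Benjamini-Hochberg), and 72.9% did not overlap in level. The median log2 fold change of the 7 tested genes was -1.45, against 0.05 over all tested genes. It was -0.50, against 1.01 over all, when UMIs were compared per tube of 100 cells with no scaling, and -0.68, against 0.02, with offsets that remove the trend of fold change with abundance. With 2 libraries against 2, the smallest p of an exact two-sided permutation test is 0.333, and the adjusted p-values depend on borrowing the spread from other genes, with a common biological coefficient of variation of 9.50%.

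**Figure D1:**
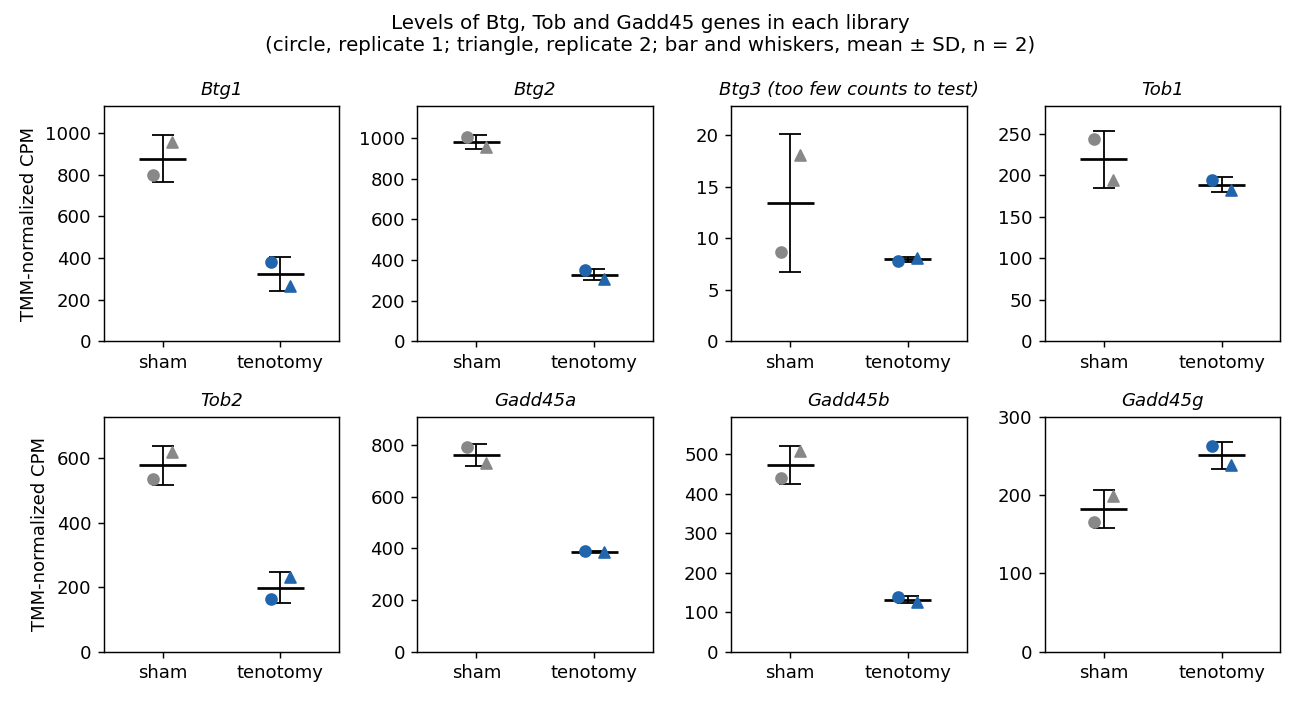
TMM-normalized CPM of each of the 8 genes in the 2 sham and 2 tenotomy libraries, each panel with its own axis from 0; circles are replicate 1, triangles replicate 2, and bars with whiskers the mean ± SD (n = 2). Btg1, Btg2, Tob2, Gadd45a and Gadd45b have both tenotomy points below both sham points, Gadd45g has them above, and the groups overlap for Tob1.

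Btg2 (ENSMUSG00000020423; GRCm38 chromosome 1, 134075170 to 134079120, minus strand, 2 exons in the longest coding transcript) was the most abundant of the 8 genes in sham MuSCs. It had 231 and 211 UMIs in the sham libraries and 134 and 152 in the larger tenotomy libraries, or 1006 and 956 CPM against 348 and 308. Both tenotomy libraries were below both sham libraries on either scale. In sham the mean was 981 ± 35.1 CPM (SD, n = 2), against 328 ± 28.7 (SD, n = 2) in overloaded muscle. The log2 fold change was -1.58 (SE 0.16, 95% confidence interval -1.92 to -1.24, edgeR adjusted p = 1.1e-06), or 3.0-fold lower.

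Btg1 (ENSMUSG00000036478; chromosome 10, 96617006 to 96622809, plus strand, 2 exons), which encodes the closest relative of Btg2 and is likewise a CAF1-binding antiproliferative protein, had 183 and 211 UMIs in sham against 147 and 131 after tenotomy. Its levels were 797 and 956 CPM against 382 and 265. The groups did not overlap, although the tenotomy libraries differed more from each other than for Btg2. From 876 ± 113 CPM (SD, n = 2) in sham to 324 ± 82.7 (SD, n = 2), the log2 fold change was -1.45 (SE 0.19, 95% confidence interval -1.84 to -1.06, edgeR adjusted p = 1.3e-05), or 2.73-fold lower. The number of Btg2 molecules per Btg1 molecule, a ratio that no single factor per library can alter, was 1.26 and 1.0 in sham and 0.912 and 1.16 after tenotomy. These ratios overlapped between the groups, so that any difference between the falls of both genes was not detectable at this depth.

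Btg3 (ENSMUSG00000022863; chromosome 16, 78332637 to 78377192, minus strand, 4 exons), another member of the BTG branch, had 2 and 4 UMIs in sham against 3 and 4 in the overloaded muscle. With 6 against 7 molecules, the TMM-normalized ratio of tenotomy to sham was 0.598, with an exact (Clopper-Pearson) counting interval of 0.172 to 2.15. A change of Btg3 was not detectable at this depth. Its longest coding transcript in the annotation, to which the 4 exons refer, held 152 codons. This transcript began within its coding part, so that it may be incomplete. Cxadr, on the opposite strand over the same stretch, had 4 and 0 UMIs against 3 and 8. Gm49590 overlaps Btg3 on the same strand in the annotation and has no row in the count table. The part of these overlaps in the low counts of Btg3 was not tested.

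Tob2 (ENSMUSG00000048546; chromosome 15, 81848272 to 81858796, minus strand, 2 exons) encodes a TOB protein, which binds poly(A)-binding protein as well as CAF1. It had 123 and 137 UMIs in sham against 63 and 115 after tenotomy, or 535 and 621 CPM against 164 and 233. The second tenotomy library was the higher of the pair, yet far below both sham libraries in CPM. The level fell from 578 ± 60.3 CPM (SD, n = 2) to 198 ± 48.8 (SD, n = 2), a log2 fold change of -1.52 (SE 0.19, 95% confidence interval -1.92 to -1.12, edgeR adjusted p = 8.8e-06), or 2.87-fold lower. The antisense gene Gm49476 overlaps Tob2 on the plus strand in the annotation and has no row in the count table. The strand setting of the counting is not given in the sources used here, so that reads of the pair may not have been told apart.

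Tob1 (ENSMUSG00000037573; chromosome 11, 94211454 to 94215495, plus strand, 2 exons), the other TOB gene, had 56 and 43 UMIs in sham against 75 and 90 in overloaded muscle, or 244 and 195 CPM against 195 and 182. The groups overlapped in CPM, whereas in UMIs per tube both tenotomy libraries were higher. Means were 219 ± 34.6 CPM (SD, n = 2) and 189 ± 9.02 (SD, n = 2). The log2 fold change of -0.22 did not pass the threshold (SE 0.20, 95% confidence interval -0.65 to 0.20, edgeR adjusted p = 0.39), and its sign turned with library sizes alone, under offsets for abundance and per tube of 100 cells. Per molecule of Tob1 there were 2.20 and 3.19 molecules of Tob2 in sham and 0.840 and 1.28 after tenotomy, without overlap. Similarly, there were 4.13 and 4.91 molecules of Btg2 per molecule of Tob1 in sham and 1.79 and 1.69 after tenotomy.

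Gadd45b (ENSMUSG00000015312; chromosome 10, 80930073 to 80932204, plus strand, 4 exons), a GADD45 gene induced by NF-κB and TGF-β signalling, showed the largest fall of the 7 tested genes. It had 101 and 112 UMIs in sham against 53 and 62 after tenotomy, or 440 and 507 CPM against 138 and 126. Both tenotomy libraries lay close together and well below sham on both scales. From 473 ± 47.9 CPM (SD, n = 2) to 132 ± 8.66 (SD, n = 2), the log2 fold change was -1.85 (SE 0.18, 95% confidence interval -2.24 to -1.46, edgeR adjusted p = 9.5e-07), or 3.60-fold lower. Of the 7228 tested genes, 198 had a fold change as low or lower, Gadd45b included.

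Gadd45a (ENSMUSG00000036390; chromosome 6, 67035096 to 67037457, minus strand, 4 exons), the p53-responsive member of the family, had 182 and 161 UMIs in sham against 150 and 190 after tenotomy. Counted per tube, the groups therefore overlapped. In CPM they did not, at 792 and 729 against 390 and 385, with means of 761 ± 44.5 (SD, n = 2) and 387 ± 3.72 (SD, n = 2). The log2 fold change was -0.97 (SE 0.16, 95% confidence interval -1.31 to -0.64, edgeR adjusted p = 1.2e-04), or 1.96-fold lower. Per tube the call was lost, at -0.01 (edgeR adjusted p = 0.95), as it was with offsets fitted to remove the trend of fold change with abundance, where it was -0.18 (adjusted p = 0.33). E230016M11Rik, on the opposite strand of the same stretch, had 2 and 1 UMIs against 1 and 1.

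Gadd45g (ENSMUSG00000021453; chromosome 13, 51846678 to 51848468, plus strand, 4 exons), the third member, went the other way. It had 38 and 44 UMIs in sham against 101 and 118 after tenotomy, or 165 and 199 CPM against 263 and 239. Both tenotomy libraries were above both sham libraries on either scale. Means were 182 ± 24.0 CPM (SD, n = 2) and 251 ± 16.7 (SD, n = 2), and the log2 fold change was 0.46 (SE 0.20, 95% confidence interval 0.04 to 0.87, edgeR adjusted p = 0.071), or 1.37-fold higher. The call was lost with DESeq2 (log2 fold change 0.47, adjusted p = 0.34), without sham replicate 1 (0.29, edgeR adjusted p = 0.46), without sham replicate 2 (0.56, adjusted p = 0.15) and without tenotomy replicate 1 (0.41, adjusted p = 0.17). Markers of leukocytes, endothelium, mural cells and myofibres, and the fibroblast marker Ly6a, were also higher in both tenotomy libraries. Of the 5 tested fibroblast markers, however, Col3a1 (-0.53), Dcn (-0.38) and Gsn (-1.09) were lower, and these 3 calls were lost per tube and under the offsets. The part of all these transcripts in the level of Gadd45g was not tested.

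Within the GADD45 family, transcripts were also compared as ratios of UMIs in the same library, in which any single factor per library cancels and to which the offsets for abundance, which differ between genes, were not applied. Per molecule of Gadd45g there were 2.66 and 2.55 molecules of Gadd45b in the sham libraries and 0.525 and 0.525 in the tenotomy libraries. The exact counting intervals were 1.81 to 3.97 and 1.78 to 3.69 in sham against 0.369 to 0.739 and 0.380 to 0.720 after tenotomy, so that the order of both transcripts was turned round. For Gadd45a, there were 4.79 and 3.66 molecules per molecule of Gadd45g in sham and 1.49 and 1.61 after tenotomy, with Gadd45a remaining the more abundant. Gadd45g made up 4.15% and 4.77% of the UMIs of the 8 genes in sham and 13.9% and 13.7% after tenotomy. Tob1 also had a larger share, 10.3% and 10.4% against 6.11% and 4.66% in sham, whereas Btg2 had a smaller one, 18.5% and 17.6% against 25.2% and 22.9%.

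**Figure D2:**
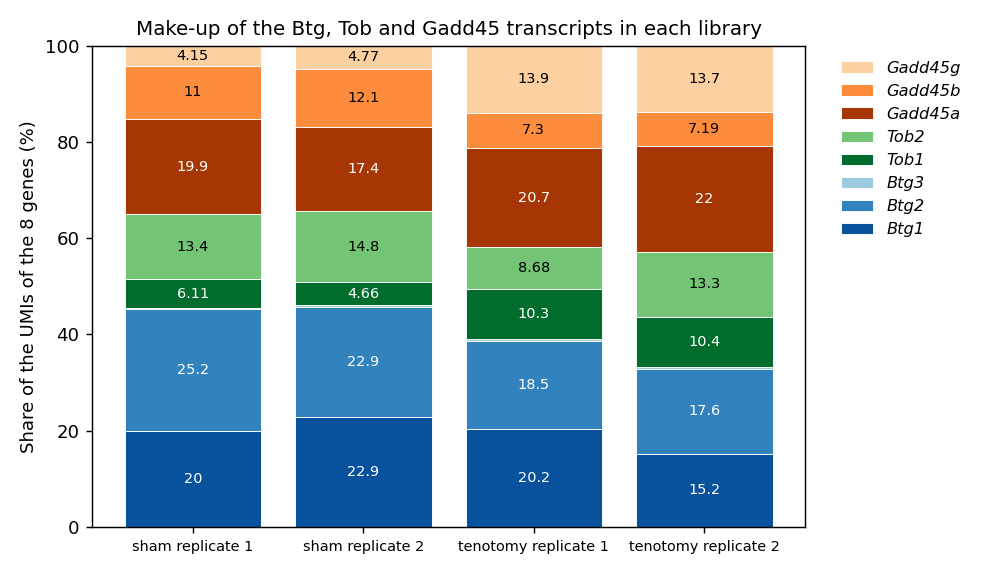
Share of each gene in the UMIs of the 8 genes, in percent, for the 2 sham and 2 tenotomy libraries; the parts of each bar add up to 100% and Btg3, below 0.5%, is a thin line. The Gadd45g part is 4.15% and 4.77% in sham and 13.9% and 13.7% after tenotomy, and the Tob1 part is also larger in both tenotomy libraries.

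Together, the 8 genes had 916 and 923 UMIs per tube in sham and 726 and 862 after tenotomy. They were 0.340% and 0.354% of all UMIs of the sham libraries and 0.187% and 0.178% of those of the tenotomy libraries. The exact (Clopper-Pearson) 95% intervals of these shares were 0.318% to 0.362% and 0.332% to 0.378% in sham, and 0.174% to 0.201% and 0.167% to 0.191% after tenotomy. Neither the shares nor the sums per tube overlapped between the groups, and the sums per tube differed by less. These intervals cover counting error only.

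The order of the levels changed. In sham MuSCs, it ran in CPM from Btg2 through Btg1, Gadd45a, Tob2, Gadd45b, Tob1 and Gadd45g to Btg3. Btg2 and Btg1 overlapped there, as did Tob1 and Gadd45g, and the lower Btg1 library, at 797 CPM, lay just above the higher Gadd45a library, at 792 CPM. After tenotomy, Gadd45a was the highest, followed by Btg2, Btg1, Gadd45g, Tob2, Tob1, Gadd45b and Btg3. Of these, Btg2 and Btg1 overlapped, as did Tob2 and Tob1. The lower Gadd45a library, at 385 CPM, lay just above the higher Btg1 library, at 382 CPM. Likewise, the lower Btg1 library, at 265 CPM, lay just above the higher Gadd45g library, at 263 CPM. The lower Gadd45g library, at 239 CPM, was close to the higher Tob2 library, at 233 CPM. Among all tested genes ranked by CPM within each library, Gadd45b moved from the 93.3rd percentile (mean of 2 libraries) to the 68.7th and Tob2 from the 95.4th to the 82.2nd. Gadd45g moved from the 76.8th to the 88.8th, and Tob1 stayed at the 81.1st. Btg2, Btg1 and Gadd45a remained among the abundant transcripts, at the 94.2nd, 93.2nd and 96.1st percentile after tenotomy.

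Fold changes in these libraries depended on abundance, and the genes with the largest falls here were abundant ones. The most abundant 10% of tested genes had a median of -0.74 on the log2 scale and the rarest 10% a median of 0.53. With offsets that remove this dependence, the log2 fold changes were -0.78 for Btg2 (edgeR adjusted p = 1.1e-04), -0.68 for Btg1 (adjusted p = 0.0012), -0.95 for Tob2 (adjusted p = 2.8e-04) and -1.46 for Gadd45b (adjusted p = 1.7e-06), all still past the threshold. Gadd45g was 0.75 under the same offsets (adjusted p = 0.0048). The part of abundance-dependent capture in these changes was not tested.

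**Figure D3:**
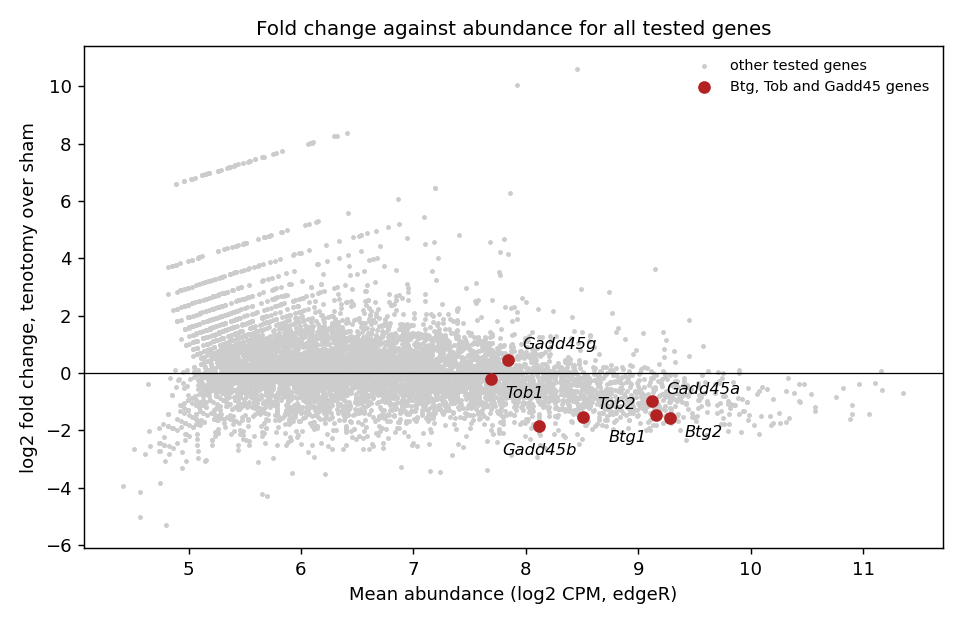
Log2 fold change (tenotomy over sham) against mean abundance (log2 CPM, edgeR) for the 7228 tested genes in grey, with the 7 tested Btg, Tob and Gadd45 genes in red; the stripes at the upper left are genes with few or no sham counts, whose fitted values depend on the prior count. Gadd45b, Tob2, Btg1, Btg2 and Gadd45a lie below 0 among the more abundant genes, where the cloud as a whole lies below 0.

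The direction of some values depended on how the libraries were scaled. With library sizes alone, the median of all tested genes was shifted to 0.33, and per tube of 100 cells, with no scaling, to 1.01. Of the genes called, 49.6% were higher with TMM, 66.6% with library sizes alone and 93.1% per tube. Per tube, the log2 fold changes were -0.63 for Btg2, -0.50 for Btg1, -0.55 for Tob2 and -0.89 for Gadd45b, all lower past the threshold, with 4 of the 7 genes lower and 2 higher (Gadd45g at 1.41 and Tob1 at 0.74), beside 4.58% lower and 62% higher among all tested genes. Relative to the shifted median, the values per tube were -1.64 for Btg2, -1.51 for Btg1, -1.56 for Tob2, -1.90 for Gadd45b, -1.02 for Gadd45a, -0.28 for Tob1 and 0.40 for Gadd45g. Btg1, Btg2, Tob2 and Gadd45b were lower past the threshold in each of the 11 alternatives run.

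**Figure D4:**
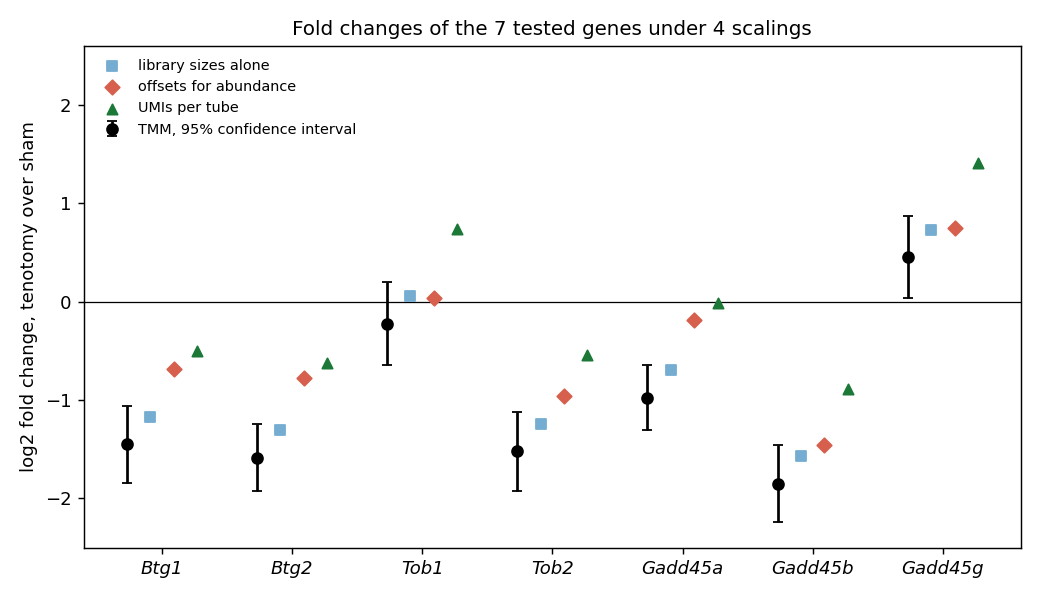
Log2 fold change (tenotomy over sham) of the 7 tested genes under TMM scaling with its 95% confidence interval (black), library sizes alone (squares), offsets for abundance (diamonds) and UMIs per tube of 100 cells (triangles). Btg1, Btg2, Tob2 and Gadd45b lie below 0 and Gadd45g above 0 under each of the 4 scalings, whereas Gadd45a per tube is near 0 and Tob1 changes sign.

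Of the 10 genes of the CCR4-NOT complex, through which BTG and TOB proteins act, 9 were tested. Of these 3 were higher, 1 was lower and 5 did not pass, beside 25.8% higher and 26.3% lower among all tested genes. The median log2 fold change of the 9 was -0.07, and it turned to 0.89 per tube, 0.21 with library sizes alone and 0.03 under the offsets. Per tube 6 were higher and 0 were lower, beside 62% and 4.58% of all tested genes. Cnot6, a catalytic subunit and the most abundant of the 9, had 90 and 82 UMIs in sham against 107 and 129 after tenotomy (log2 fold change -0.50, SE 0.17, edgeR adjusted p = 0.023). This call was lost in 6 of 11 alternatives, DESeq2 and leaving out sham replicate 1 among them. Its paralog Cnot6l went the other way, with 49 and 48 UMIs against 141 and 159 (log2 fold change 0.67, SE 0.18, adjusted p = 0.0073). The scaffold-associated subunit Cnot9 had 2 and 9 UMIs against 40 and 47 (log2 fold change 2.01, SE 0.45, adjusted p = 0.0018). Cnot8, one of the CAF1 paralogs that BTG and TOB proteins bind, had 14 and 2 UMIs against 28 and 60 (log2 fold change 1.47, SE 0.49, adjusted p = 0.021), its sham libraries differing widely, and the call was lost with DESeq2 and without sham replicate 2. Cnot7, the paralog of Cnot8, had 28 and 20 UMIs against 29 and 39 and a log2 fold change of -0.46 that did not pass (edgeR adjusted p = 0.22). Both Cnot9 and Cnot8 had 2 UMIs in 1 of the sham libraries, and neither would have passed the filter on low counts without the tenotomy libraries.

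Of 7 other partners in mRNA decay, 1 was higher and 3 were lower, beside 25.8% higher and 26.3% lower among all tested genes. The median of the 7 was -0.09, and it turned to 0.86 per tube and to 0.18 with library sizes alone. Per tube 4 were higher, beside 62% of all tested genes, and the lower calls were lost. Pabpc1, which encodes the main cytoplasmic poly(A)-binding protein, had 176 and 209 UMIs in sham against 200 and 165 after tenotomy (log2 fold change -1.02, SE 0.20, edgeR adjusted p = 5.5e-04), a call also lost under the offsets. Prmt1, an arginine methyltransferase that binds BTG1 and BTG2, had 24 and 24 UMIs against 19 and 21 (log2 fold change -1.22, SE 0.32, adjusted p = 0.0055). Cpeb3, an RNA-binding protein that recruits TOB, had 4 and 7 UMIs against 31 and 21 (log2 fold change 1.28, SE 0.50, adjusted p = 0.044), and this call was lost with DESeq2, under the offsets, without sham replicate 1 and without tenotomy replicate 1. It passed the filter on low counts only through the tenotomy libraries. Pan3, a subunit of the other cytoplasmic deadenylase, had 36 and 46 UMIs against 76 and 73 and a log2 fold change of -0.09 that did not pass (adjusted p = 0.77).

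Among 14 genes of GADD45 partners and the kinases downstream, 11 were tested. Of these 1 was higher and 2 were lower, beside 25.8% higher and 26.3% lower among all tested genes. The median of the 11 was 0.03, and it was 1.0 per tube and 0.31 with library sizes alone. Per tube 7 were higher, beside 62% of all tested genes, and both lower calls were lost. Under the offsets 3 were higher and 1 was lower, beside 21.3% and 21.8%. Cdkn1a, the gene of p21, was among the most abundant transcripts of these MuSCs, with 389 and 369 UMIs in sham against 397 and 509 after tenotomy, or 1693 and 1672 CPM against 1032 and 1031. It was lower in CPM (log2 fold change -0.71, SE 0.15, edgeR adjusted p = 0.0014) but not in UMIs per tube or under the offsets. Map2k3, a kinase that activates p38, had 144 and 159 UMIs against 101 and 145 (log2 fold change -1.27, SE 0.17, adjusted p = 1.6e-05). Mapk9, which encodes a JNK, had 10 and 8 UMIs against 29 and 44 (log2 fold change 1.05, SE 0.37, adjusted p = 0.028), and its call was lost with DESeq2, without sham replicate 2 and without tenotomy replicate 2.

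Of 11 transcription factors known to induce genes of these families, 10 were tested. By edgeR's quasi-likelihood test 5 were lower and 5 did not pass, beside 26.3% lower and 25.8% higher among all tested genes. The median log2 fold change of the 10 was -0.47, and it turned to 0.50 per tube. Per tube 4 were higher and 4 were lower, beside 62% and 4.58% of all tested genes. Trp53, the gene of p53 (-0.17, edgeR adjusted p = 0.48), and Smad3 (-0.05) and Smad4 (-0.24), which act in TGF-β signalling, did not pass, and the lower call of Foxo3 was lost in 7 of 11 alternatives. Rela and Nfkb1, subunits of NF-κB, a regulator of Gadd45b, both fell. Rela had 79 and 68 UMIs in sham against 28 and 34 after tenotomy (log2 fold change -2.20, SE 0.21, edgeR adjusted p = 7.4e-07). Nfkb1 had 314 and 342 UMIs against 160 and 211 (log2 fold change -1.79, SE 0.16, adjusted p = 3.9e-07). Egr1, a growth-factor-induced regulator of transcription, had 411 and 433 UMIs against 234 and 250 (log2 fold change -1.75, SE 0.16, adjusted p = 5.4e-07). Atf4 was also lower, with 309 and 261 UMIs against 197 and 244 (log2 fold change -1.33, SE 0.16, adjusted p = 5.7e-06). These are transcript levels, and the activity of the factors was not measured. Their part in the levels of Btg, Tob and Gadd45 genes was not tested.

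Most tested genes of the cell cycle, which these families restrain, were higher. Of 8 genes for cyclins and kinases of the G1 phase, 6 were tested and 6 were higher, beside 25.8% of all tested genes. The median log2 fold change of the 6 was 1.71. Of these 3 were still higher under the offsets, beside 21.3% of all tested genes. With DESeq2 4 were still higher, beside 9.34% of the 10348 genes to which it gave an adjusted p. Cdk4 had 36 and 35 UMIs in sham against 149 and 189 after tenotomy (log2 fold change 1.29, SE 0.19, edgeR adjusted p = 4.8e-05). Ccnd1, which encodes cyclin D1, had 49 and 40 UMIs against 139 and 135 (log2 fold change 0.67, SE 0.21, adjusted p = 0.014), a call lost with DESeq2 and without sham replicate 2. Ccne1, for cyclin E1, had 4 and 1 UMIs against 18 and 28 (log2 fold change 2.20, SE 0.55, adjusted p = 0.0040), and Ccnd2, for cyclin D2, had 0 and 3 against 21 and 31, a ratio of 8.89 with an exact counting interval of 2.88 to 44.5. The calls of both Ccne1 and Ccnd2 were lost under the offsets, and both genes passed the filter on low counts only through the tenotomy libraries. Cdk2 had 21 and 15 UMIs against 44 and 62 (log2 fold change 0.59, SE 0.28, edgeR adjusted p = 0.096). Its call was lost in 8 of 11 alternatives, DESeq2 and the offsets among them.

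Of 13 genes of S, G2 and M phase, 12 were higher, beside 25.8% of all tested genes. The exception was Pcna, whose protein GADD45 binds, with 40 and 34 UMIs against 48 and 63 (log2 fold change -0.38, SE 0.22, edgeR adjusted p = 0.18). The 12 genes had at most 8 UMIs in any sham library, so that they passed the filter on low counts only through the tenotomy libraries. All 13 were tested, and 12 were also higher with no filter. The median log2 fold change of the 13 was 4.23, or 3.84 with the genes at 0 in sham set to their lower bound. It was 3.60 without sham replicate 1, 5.20 without sham replicate 2 and 3.45 under the offsets. Top2a, the topoisomerase of dividing cells, had 2 and 6 UMIs in sham against 124 and 176 after tenotomy (log2 fold change 4.23, SE 0.33, adjusted p = 1.4e-07). Rrm2, a subunit of ribonucleotide reductase, had 5 and 8 UMIs against 130 and 162 (log2 fold change 3.51, SE 0.29, adjusted p = 1.8e-07). Ccnb1, for cyclin B1, had 0 and 0 UMIs against 37 and 47 and was at least 14.4-fold higher, and Cdc45, a replication factor, had 0 and 0 against 20 and 33 and was at least 9.06-fold higher, both against a floor of 3 counts over the sham group.

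Several of the genes here, Btg2 and Gadd45b among them, are known to be induced quickly by stimuli and by handling of cells, as immediate early genes are. Of 17 immediate early and heat shock genes, 17 were lower by edgeR's quasi-likelihood test, beside 26.3% of all tested genes. The median log2 fold change of the 17 was -1.53. Per tube 11 were lower and 2 were higher, with a median of -0.57, and under the offsets 13 were lower and 2 were higher, with a median of -0.67, beside the shares of all genes given above for these scalings. Together they had 4742 and 4690 UMIs in sham against 3114 and 3845 after tenotomy. Hspa1b, the most abundant, had 610 and 588 UMIs against 495 and 581 (log2 fold change -1.11, SE 0.16, edgeR adjusted p = 3.3e-05), a call lost per tube and under the offsets, and Junb had 445 and 460 against 261 and 277 (log2 fold change -1.70, SE 0.16, adjusted p = 6.7e-07). Fosb had 293 and 314 UMIs against 106 and 157 (log2 fold change -2.18, SE 0.17, adjusted p = 1.2e-07), and Jund had 237 and 268 against 99 and 151 (log2 fold change -1.99, SE 0.17, adjusted p = 3.0e-07). The cells of both groups were released by collagenase digestion before sorting, and the part of such handling in the levels of Btg, Tob and Gadd45 genes was not tested.

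**Figure D5:**
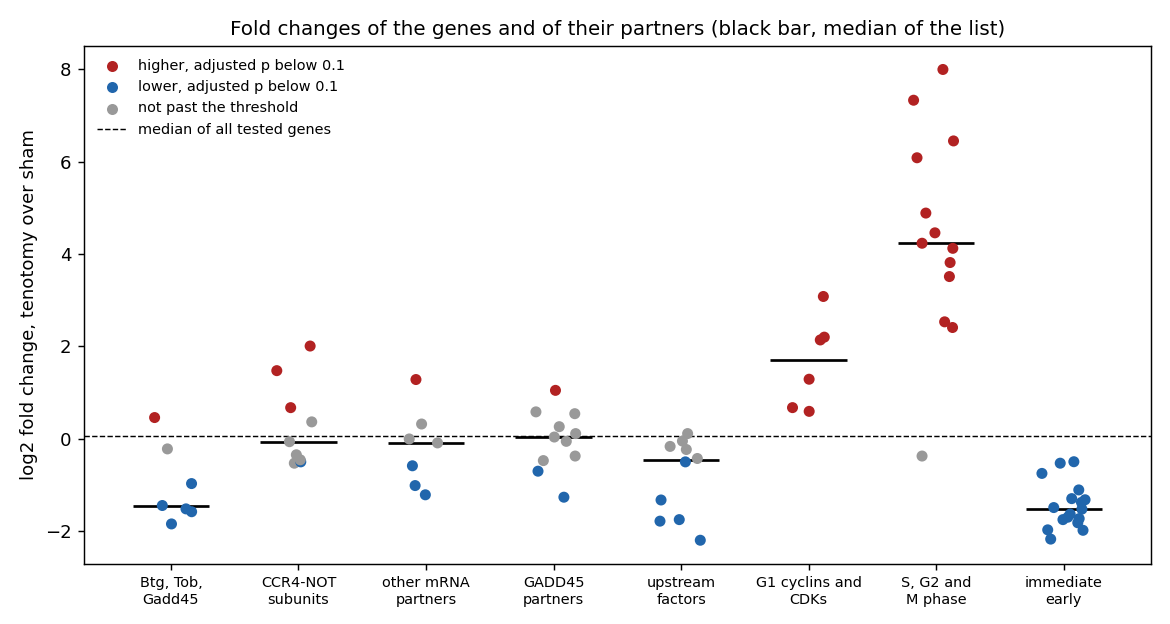
Log2 fold changes (tenotomy over sham) of the tested genes in each of 8 lists, 1 point per gene, red for higher and blue for lower at an adjusted p below 0.1 (edgeR) and grey for neither; black bars are list medians and the dashed line is the median of all tested genes. The Btg, Tob and Gadd45 median is -1.45, near that of the immediate early list at -1.53, and the cell cycle lists lie above 0; the 2 highest points of S, G2 and M phase are Ccnb1 and Cdc45, fitted against 0 sham counts.

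The likeness of profiles was measured for Btg2 and Gadd45a, which had the most UMIs over the 4 libraries, as the root mean square distance of centred log2 CPM over these libraries to each of 4714 genes with a mean of at least 20 UMIs. Nearest to Btg2 were Zmym5 (0.029), Tcim (0.030) and Ackr3 (0.031). Tcim, for example, had 218 and 192 UMIs in sham against 129 and 144 after tenotomy. Nearest to Gadd45a were Rapgef6 (0.021) and Rsrc2 (0.027), and Rapgef6 had 61 and 52 UMIs against 50 and 63. With 4 libraries that fall into 2 groups, this distance mainly reflects the size of the difference between the groups.

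The transcripts also differed in a feature that no value here bears on directly. In the GENCODE annotation of GRCm38, the 3′ untranslated region of the longest coding transcript held the AU-rich pentamer ATTTA 11 times in Btg1, 5 times in Btg2 and Btg3, 4 times in Tob2, 3 times in Tob1, 2 times in Gadd45a and 0 times in Gadd45b and Gadd45g. Per kilobase, this was 2.64 in Btg1, 2.27 in Btg2, 1.96 in Btg3, 3.91 in Tob1, 1.63 in Tob2 and 3.55 in Gadd45a, against a median of 1.54 over the 6792 tested genes with such a region of at least 50 bases, of which 75.5% held it at least once. Gadd45b and Gadd45g lacked it, and Tob1 had the highest density of the 8 genes. Any relation of this pentamer to the fold changes was not tested.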

How the data were processed

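MuSCs were sorted by YFP, and CEL-Seq2 libraries were made from 2 sham and 2 tenotomy tubes of 100 cells. The authors extracted barcodes and UMIs with UMI-tools 1.0.0, mapped the reads to GRCm38 with HISAT2 2.1.0, assigned them with featureCounts 1.6.4 and, per the submitters' processing notes, used DESeq2 1.22.2. The authors deposited counts of UMIs per gene, not normalized. Annotation release and strand setting are not given in the sources used here. All 19353 identifiers matched GENCODE M21 for GRCm38.

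Genes were filtered with filterByExpr (minimum count 10, minimum total 15), scaled by TMM and tested with edgeR 4.0.16 (glmQLFit, glmQLFTest, R 4.3.3) with group as the only term, sharing 1 estimate of spread. Adjusted p-values are Benjamini-Hochberg over all 7228 tested genes, with a threshold of 0.1. CPM used the summed UMIs of tested genes times the TMM factor. Libraries of 1 group differed by more than sampling noise (chi-square per degree of freedom 1.31 for sham and 1.50 for tenotomy, against 6.34 to 7.86 between groups). The steps were tested on simulated data.

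Alternatives were DESeq2 1.42.0, its size factors, library sizes alone, UMIs per tube, offsets for abundance (loess of limma 3.58.1, span 0.3), no filter, a count of 10 in every library of a group, the replicate number as a block and each library left out. The members and lists were chosen with earlier results of these data known. Named were the 8 genes, per pathway list the 2 tested genes with the most UMIs and the 2 with the largest change past the threshold, per marker list the most abundant gene, and the 3 nearest profiles for each of the 2 genes with the most UMIs, of which 1 is not reported here. Cnot7, Pcna, Trp53, Smad3, Smad4, Foxo3, Atf4, Cdk2, Ptprc, Pdgfra, Dcn, Gsn, Ly6a, the myogenic markers other than Myf5 and the genes overlapping a member fell outside the rule and were picked with their values in view. Intervals and floors of 3 counts cover counting error only. Python 3.11.15, numpy 2.4.6, pandas 2.3.3, scipy 1.17.1 and matplotlib 3.10.9 were used.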

Additional observations from a re-analysis of the deposited data

How the results depend on the processing

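With 2 libraries per group, small changes may be missed. Btg1, Btg2, Tob2 and Gadd45b were lower past the threshold under each of 11 alternatives, with log2 fold changes of -1.70 to -0.50 for Btg1, -1.66 to -0.63 for Btg2, -1.77 to -0.55 for Tob2 and -1.98 to -0.89 for Gadd45b. Gadd45a lost its call under 2 alternatives and Gadd45g under 4, and neither changed sign. Tob1 turned to 0.055 with library sizes alone, 0.042 with offsets for abundance and 0.74 per tube, the last past the threshold (edgeR adjusted p = 0.030). For the sign of Tob1 per tube and with library sizes alone, the shift of all genes to 1.01 and 0.33 exceeded its fold change; under the offsets the cause was not tested.

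In all, 3766 genes were called, and 2182 with DESeq2. Of the 8 genes, the count called higher was 1, against 0 with DESeq2, 2 per tube (beside 25.8%, 9.34% and 62% of all genes tested in these settings), and 0 to 1 with 1 library left out, where it was 0 without sham replicate 1, sham replicate 2 or tenotomy replicate 1. The causes were not tested. With the replicate number as a block, 3670 genes were called and no call of the 8 genes changed. Deviations of same-numbered libraries correlated at -0.034, and nothing in the labels says that a number pairs libraries.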
